A study of Mus musculus with 27 samples.

Results

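The 10 genes described here make, conjugate, sense and carry bile acids, and were taken by name from the 36333 genes of the deposited table, to be followed mainly in liver. Bile acids are made from cholesterol in hepatocytes, and their synthesis is a main route by which cholesterol leaves the body. The classical pathway begins with *Cyp7a1*, the alternative pathway with *Cyp27a1* and *Cyp7b1*, and *Cyp8b1* sets the share of cholic acid among the products. *Baat* joins bile acids to taurine, *Slc10a1* takes them up from portal blood and *Abcb11* exports them into bile. *Abcb4* moves phosphatidylcholine into bile beside them. The bile acid receptor *Nr1h4* (FXR) induces *Nr0b2* (SHP), which represses synthesis.

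The samples were 27 tissues of male *Mlx*KO mice from a cross of Mlx Flox/Flox mice with the B6.129 line that carries the allele Gt(ROSA)26Sortm1(cre/ERT2)Tyj: liver, omental adipose tissue and skeletal muscle, each from 4 mice at 5 months and 5 mice at 20 months of age. The samples of both ages shared the floxed alleles, the tamoxifen-activated Cre driven from the ubiquitous ROSA26 locus and 5 daily i.p. injections of tamoxifen at 75 mg/kg from weaning, so no sample shows the genes without these. The labels give the older age as 20 months, although their sample codes begin with X18. A table of the study lists the older mice at a slightly lower age than the labels, and the age of the labels is used throughout. WT tissues were not analysed here, and every comparison below is of age within *Mlx*KO mice. The same 4 mice, called A, B, C and D here in the order of their label numbers, gave all 3 tissues at 5 months, whereas mice at 20 months go by their label numbers and no mouse number was shared between tissues at 20 months.

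Livers held 17200431 to 24179928 reads on genes, and all 27 samples 14384695 to 25673919. Values below are as deposited: CPM divided by a further factor for each sample. *Mlx*, the deleted gene, still gave 361 to 522 reads per liver and was at 28.98 ± 3.47 (SD, n = 4 livers) at the younger age and 23.9 ± 3.79 (SD, n = 5 livers) at the older. Without WT samples and with whole-gene counts, these values do not measure the excision. The tissue labels were borne out by 9 hepatocyte marker genes, whose summed value was 72782 to 193789 in livers and 23.4 to 3895 in the other samples, and by 6 skeletal muscle marker genes, which summed to at most 0.08 in any liver. One liver stood apart: mouse 74 at 20 months had the smallest sum of values of the 9 livers (952696), the least albumin (*Alb*, 26970 against 53723 to 125324 in the other livers) and the lowest value of 5 of the 10 genes, so the members' changes that passed the test in liver are also given without it. Among other genes named below as higher or lower in liver, *Akr1c14* (limma adjusted p = 0.0684), *Abcc4* (0.0592), *Pck1* (0.0636) and *Cidec* (0.0737) no longer passed without mouse 74. *Hao2* and *Cyp3a41a* were then not tested.

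Of the 10 genes, *Cyp8b1* and *Cyp27a1* fell between 5 and 20 months in liver and the other 8 did not pass the test. *Cyp8b1* was 2.20-fold and *Cyp27a1* 1.57-fold lower at 20 months as ratios of mean values. That is 2 of 10 genes, where 19.8% of all 12654 genes tested in liver passed the same threshold, 1269 higher and 1239 lower at 20 months, so the share of bile acid genes that passed was near that of all genes. The test was limma on log2(value + 1) with Benjamini-Hochberg adjustment over all genes tested and a threshold of 0.05, and in these bulk tissues fewer cells of a type and less RNA per cell cannot be told apart. All 10 genes passed the filter on low values (at least 1 in at least 4 livers). The median log2 change of the 10 was -0.32, beside 0.00 for all genes tested. Rescaling on all but the 20 most abundant genes moved the median of all genes to 0.16 and the calls to 2203 higher and 477 lower, and *Cyp8b1* remained the 1 gene of the 10 past the threshold.

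**Figure D1:**
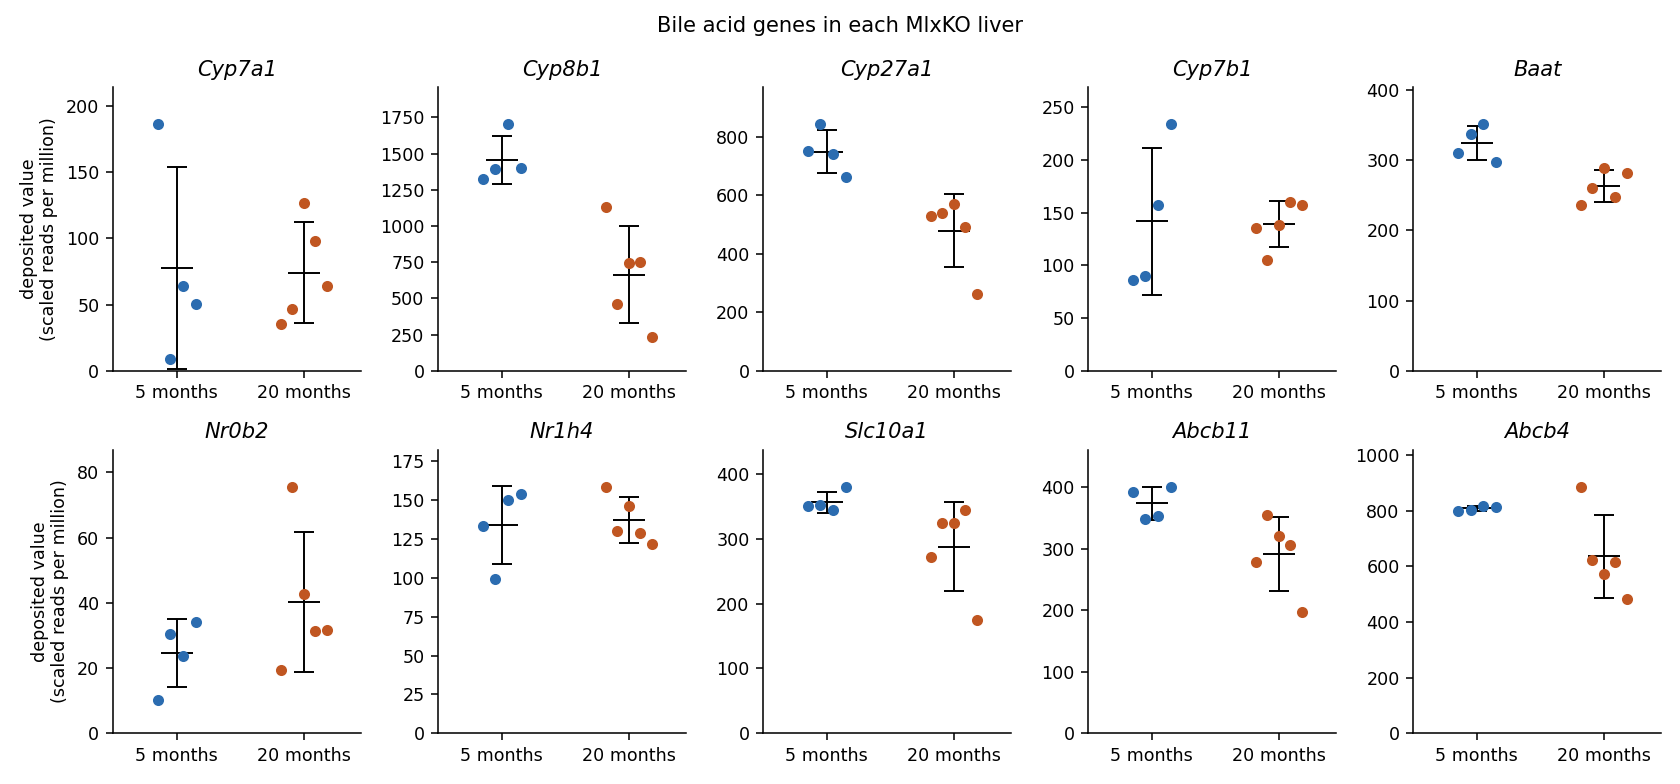
Deposited value of each of the 10 genes in every *Mlx*KO liver at 5 months (blue, n = 4) and 20 months (orange, n = 5), with the mean (horizontal mark) and SD (bars); each vertical axis starts at 0 and has its own scale. The ages do not overlap for *Cyp8b1*, *Cyp27a1*, *Baat* and, by less than 1 unit, *Slc10a1*, and *Cyp7a1* has its highest value (186) and its lowest (8.51) both at 5 months.

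The 250 bases before the transcription start are printed from RefSeq (GRCm38.p6) for *Cyp8b1*, the member with the largest fall, and for *Nr0b2* and *Abcb11*, the repressor and the exporter of the pathway. The table held 7 of the 10 genes, and its sequences run 5′ to 3′ on the strand of the gene. Capitals mark matches, on either strand, to AGGTCA, a nuclear receptor half-site, TCAAGG, the core of the site of *Nr5a2* (LRH-1), and CACGTG, the E-box that Myc and Mlx network proteins bind. *Cyp8b1* (chromosome 9, minus strand, chr9:121916306-121916555), *Nr0b2* (chromosome 4, plus strand, chr4:133553126-133553375) and *Abcb11* (chromosome 2, minus strand, chr2:69342617-69342866) read as follows.
Cyp8b1: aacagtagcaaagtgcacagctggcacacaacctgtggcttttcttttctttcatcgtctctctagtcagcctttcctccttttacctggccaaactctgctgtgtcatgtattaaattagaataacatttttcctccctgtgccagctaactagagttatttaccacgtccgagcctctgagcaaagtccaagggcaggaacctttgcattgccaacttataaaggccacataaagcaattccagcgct
Nr0b2: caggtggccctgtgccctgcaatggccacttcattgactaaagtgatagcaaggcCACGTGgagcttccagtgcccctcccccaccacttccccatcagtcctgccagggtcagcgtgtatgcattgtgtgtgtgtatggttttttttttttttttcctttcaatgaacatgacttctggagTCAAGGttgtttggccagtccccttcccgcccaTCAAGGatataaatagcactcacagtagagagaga
Abcb11: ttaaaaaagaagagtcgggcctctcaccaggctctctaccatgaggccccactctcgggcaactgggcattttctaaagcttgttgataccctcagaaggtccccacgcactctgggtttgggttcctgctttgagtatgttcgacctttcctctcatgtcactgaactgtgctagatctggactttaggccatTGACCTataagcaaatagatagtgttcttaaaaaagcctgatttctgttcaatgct
*Nr0b2* held TCAAGG at 2 places, from 68 and from 35 bases before the start, and CACGTG from 195 bases before it. *Abcb11* held AGGTCA on its reverse strand (printed as TGACCT) from 56 bases before the start, *Nr1h4* held it from 214 and 1 of the 2 *Slc10a1* entries from 87. None of the 3 words occurred in the window of *Cyp8b1*, *Cyp27a1* or *Abcb4*. Among 32536 distinct windows of this length, 14.04% held AGGTCA, 12.4% TCAAGG and 6.04% CACGTG. The 3 words do not overlap one another in the printed windows, and a match is a run of letters, not a measured site.

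*Cyp8b1*, a gene of a single exon (chromosome 9, 121914356 to 121916305), was the most abundant of the 10 per kilobase of transcript at both ages. Its values at 5 months were 1327, 1397, 1703 and 1403 in mice A, B, C and D. At 20 months they were 1128, 464, 748, 748 and 232 in mice 16, 17, 18, 19 and 74. Every liver at 20 months lay below every liver at 5 months, and the older livers were spread over a range that the younger ones were not, with mouse 16 close to the young group and mouse 74 far below it. The means were 1458 ± 167 (SD, n = 4 livers) and 664 ± 338 (SD, n = 5 livers), a log2 change of -1.31 (SE 0.369, 95% interval -2.12 to -0.50, limma adjusted p = 0.0327). Without mouse 74 the change was -0.98 (limma adjusted p = 0.0200). The call did not survive leaving out mouse 17, 18, A, B, C or D, where the limma adjusted p reached up to 0.0756 and the change stayed between -1.55 and -0.98 over all 9 livers left out in turn.

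*Cyp27a1*, the mitochondrial sterol 27-hydroxylase (chromosome 1, 74713148 to 74737897), was the second in abundance per kilobase. It stood at 751, 842, 740.5 and 662 in mice A, B, C and D at 5 months. At 20 months it stood at 529, 540.1, 569.7, 492 and 261 in mice 16, 17, 18, 19 and 74. The ages did not overlap, and 4 of the 5 older livers lay close together with mouse 74 well beneath them. The means were 749 ± 73.9 (SD, n = 4 livers) and 478 ± 125 (SD, n = 5 livers), a log2 change of -0.69 (SE 0.215, 95% interval -1.17 to -0.22, limma adjusted p = 0.0448). Without mouse 74 the change was -0.49 (limma adjusted p = 0.0145). The call was lost without mouse 17, 18, 19, A, B, C or D, with a limma adjusted p of up to 0.113.

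*Cyp7a1*, the rate-limiting enzyme of the classical pathway, varied more between livers than any other of the 10, with an SD of 1.23 on the log2(value + 1) scale over the 9 livers. Its values were 186, 8.51, 64.3 and 50.6 in mice A, B, C and D at 5 months. At 20 months they were 35.3, 46.5, 127, 98.3 and 64.3 in mice 16, 17, 18, 19 and 74. All 5 older livers fell inside the range of the younger ones. The log2 change was 0.45 (SE 0.692, 95% interval -1.07 to 1.97, limma adjusted p = 0.664), but its sign was not settled: it was -0.34 without mouse B, and with all 9 livers -0.068 by edgeR and -0.058 by DESeq2. The ratio of mean values, 0.958, lay on the other side of equality from the log2 change. The interval spans falls and rises of more than 1 on the log2 scale, so a change of that size in *Cyp7a1* was not detectable over this spread.

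*Cyp7b1*, the oxysterol 7-hydroxylase of the alternative pathway, was at 86.0, 90.0, 157 and 234 in mice A, B, C and D. The older livers, mice 16, 17, 18, 19 and 74, had 136, 105, 138, 159.9 and 157. The older livers fell inside the range of the younger ones, and the log2 change was 0.08 (SE 0.268, 95% interval -0.51 to 0.67, limma adjusted p = 0.849).

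*Baat*, the conjugating enzyme, was at 309.9, 338, 351 and 298 in mice A, B, C and D. It was at 236, 260.2, 289, 248 and 282 in mice 16, 17, 18, 19 and 74. Its ages did not overlap and its spread within an age was narrow, with means of 324 ± 24.6 (SD, n = 4 livers) and 263 ± 22.4 (SD, n = 5 livers). The log2 change of -0.30 (SE 0.104, 95% interval -0.53 to -0.07) did not pass the test (limma adjusted p = 0.0616), and it passed without mouse 74 (-0.33, limma adjusted p = 0.0377).

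Of the regulators, the receptor *Nr1h4* was at 134, 99.1, 150.0 and 154 at 5 months and at 159, 130.4, 146, 129 and 122 at 20 months, in the same order of mice. The ages overlapped, with a log2 change of 0.05 (SE 0.140, 95% interval -0.26 to 0.36, limma adjusted p = 0.833). The repressor *Nr0b2* was at 10.3, 30.6, 23.6 and 34.1 at 5 months and at 19.4, 75.6, 42.7, 31.4 and 31.8 at 20 months. Mouse 17 had the highest value and mouse A the lowest, and the ages overlapped. *Nr0b2* had a log2 change of 0.66 (SE 0.390, 95% interval -0.19 to 1.52, limma adjusted p = 0.235). It rested on 162 to 1509 reads per liver, the thinnest coverage of the 10 apart from *Cyp7a1* in mouse B, which rested on 117 reads.

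The carriers gave 3 log2 changes of similar size, none of which passed the test. *Slc10a1*, the sodium-dependent uptake carrier, was at 350.0, 351, 344 and 379.9 at 5 months and at 271, 325, 324, 344 and 175 at 20 months, and *Abcb11*, the bile salt export pump, at 393, 349, 354 and 401 and then 278, 355, 321, 306 and 197. *Abcb4*, the phospholipid floppase, was at 797, 803, 818 and 814 and then 886, 622, 572, 616 and 483. The 4 young livers lay between 797 and 818 for *Abcb4*, and 4 of the 5 older ones lay below them, with mouse 16 above. The log2 change was -0.35 for *Slc10a1* (SE 0.182, 95% interval -0.75 to 0.05, limma adjusted p = 0.189). It was -0.38 for *Abcb11* (SE 0.160, 95% interval -0.74 to -0.03, limma adjusted p = 0.107). It was -0.38 for *Abcb4* (SE 0.162, 95% interval -0.73 to -0.02, limma adjusted p = 0.118), which passed without mouse 16 (-0.50, limma adjusted p = 0.0146).

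**Figure D2:**
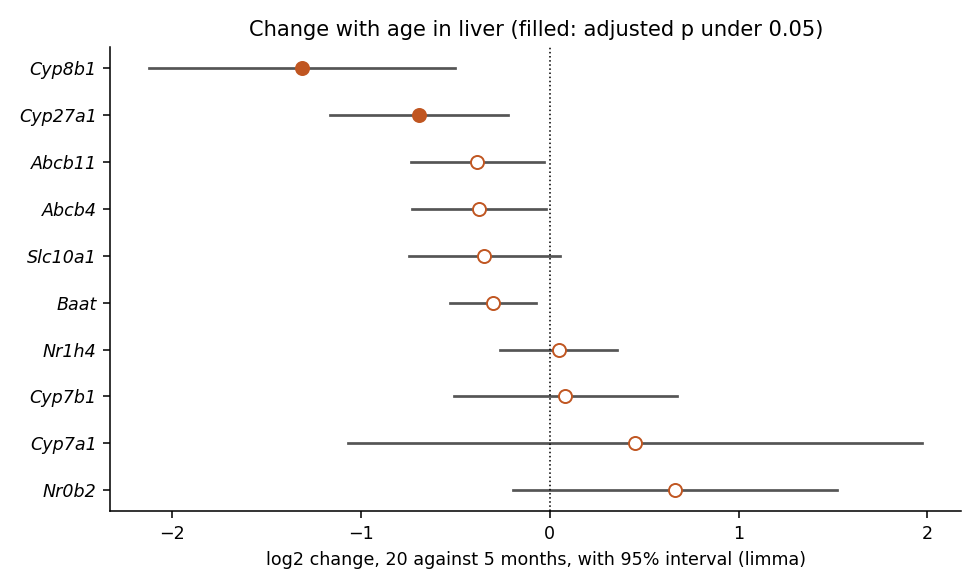
Log2 change of the 10 genes in liver, 20 against 5 months, from limma on log2(value + 1), with 95% intervals (horizontal lines); filled points have an adjusted p under 0.05. *Cyp8b1* (-1.31) and *Cyp27a1* (-0.69) are filled, 4 more genes lie between -0.38 and -0.30, and *Cyp7a1* has the widest interval.

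Without a test, the ages of 4 of the 10 genes did not overlap in liver (*Cyp8b1*, *Cyp27a1*, *Baat* and *Slc10a1*, all lower at 20 months), beside 19.1% of all genes tested. For *Slc10a1* the gap was that between 343.9 and 343.5. Per kilobase of transcript, the mean values at 5 months ran from *Cyp8b1* at 747, *Cyp27a1* at 396, *Slc10a1* at 204, *Abcb4* at 198 and *Baat* at 167 down to *Abcb11* at 74.5, *Nr1h4* at 66.6, *Cyp7b1* at 65.4, *Nr0b2* at 21.8 and *Cyp7a1* at 18.6. At 20 months the first 5 places were the same, with *Cyp8b1* at 340.5 and *Cyp27a1* at 253. Neighbours in this order whose ranges over livers overlapped at 5 months were *Slc10a1* with *Abcb4*, and *Abcb11*, *Nr1h4* and *Cyp7b1* with one another, as did *Nr0b2* with *Cyp7a1*. At 20 months neighbours within the first 5 places overlapped, with *Cyp8b1* at 119 to 579 per kilobase, *Cyp27a1* at 138 to 301, *Slc10a1* at 100.04 to 196, *Abcb4* at 118 to 217 and *Baat* at 122 to 149.

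Ratios within each liver compare genes without the scaling of the sample. The ratio of *Abcb11* to *Slc10a1*, export to uptake, was 0.993 to 1.12 at 5 months and 0.891 to 1.12 at 20 months, the steadiest of the 5 ratios examined. That of *Abcb4* to *Abcb11* was 2.03 to 2.31 and 1.75 to 3.18, with mouse 16 at the top. The ratio of *Cyp8b1* to *Cyp7a1* had a median of 27.1 (range 7.12 to 164) at 5 months and 7.61 (range 3.61 to 32.0) at 20 months, overlapping. The ratio of *Cyp7a1* to *Cyp7b1* had medians of 0.313 and 0.443, and that of *Nr0b2* to *Nr1h4* medians of 0.190 and 0.261, both overlapping between ages.

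The genes with the profile most like that of *Cyp8b1* over the 9 livers, by root mean square difference of the centred log2(value + 1), were *Nlrp12* (0.22), *Retsat* (0.26) and *Plin5* (0.29), against an SD of 0.93 for *Cyp8b1* itself. *Plin5*, a lipid droplet protein of oxidative tissues, was at 358 to 529 at 5 months and at 315, 136, 143, 153 and 55.4 in mice 16, 17, 18, 19 and 74, the same arrangement with mouse 16 highest and mouse 74 lowest. The profiles nearest to *Cyp7a1* were less close, *Unc119* (0.69), *Abcd2* (0.74) and *Sybu* (0.77), against an SD of 1.23. *Abcd2*, a peroxisomal fatty acid transporter, had its lowest value (6.55) in mouse B, as did *Unc119* (2.91) and *Sybu* (0.509). All these genes were picked for their likeness over the same livers, so a shared order of livers follows from the choice.

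Around these 10 genes, 51 other genes of bile acid synthesis, transport and regulation were tested in liver, with 3 called higher and 4 called lower at 20 months and a median log2 change of -0.19. Beside these counts and those of the liver lists below, 19.8% of all 12654 genes tested in liver were called. Of the 22 synthesis enzymes tested (the members included), 2 were higher and 3 lower, against 3 and 5 without mouse 16, 2 and 5 without mouse 74 and 1 and 0 or 1 without any other liver. *Akr1c6*, a hydroxysteroid dehydrogenase, rose from 151 ± 62.8 (SD, n = 4 livers) to 572 ± 107 (SD, n = 5 livers), a log2 change of 2.002 (SE 0.275, limma adjusted p = 0.0056), which passed in all 20 alternatives. *Akr1c14*, a 3-alpha-hydroxysteroid dehydrogenase, rose from 104 ± 22.1 to 172 ± 45.5 (log2 change 0.71, limma adjusted p = 0.0421), a call lost without 8 of the 9 livers. Reads of these related Akr1c genes could be split between copies by the counting, so both values are uncertain. *Cyp39a1*, which hydroxylates 24-hydroxycholesterol, fell from 108 ± 50.2 to 36.2 ± 19.1 (log2 change -1.67, limma adjusted p = 0.0255), a call lost without 4 of the 9 livers.

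Of the 18 transporters tested, 1 was higher and 2 lower, with a median of -0.29, and with 1 liver left out 0 or 1 were higher and 0 (without mouse 18, 19 or B) to 4 (without mouse 16) lower. *Abcc4*, a basolateral efflux pump, rose from 5.89 ± 1.46 (SD, n = 4 livers) to 9.53 ± 1.83 (SD, n = 5 livers), a log2 change of 0.62 (limma adjusted p = 0.0387). *Slc10a5*, a relative of *Slc10a1*, fell from 55.4 ± 8.82 to 35.9 ± 7.43 (log2 change -0.62, limma adjusted p = 0.0262). *Atp8b1*, a canalicular phospholipid flippase, fell from 53.2 ± 11.9 to 35.1 ± 4.59 (log2 change -0.57, limma adjusted p = 0.0299). The calls of these 3 genes were lost without 6, 5 and 4 of the 9 livers. Of the 21 regulators tested, *Prox1*, a homeobox corepressor of *Cyp7a1*, was the 1 that passed, with values of 209.8 to 284 at 5 months and 124 to 157 at 20 months that did not overlap. Its log2 change was -0.78 (SE 0.116, limma adjusted p = 0.0063), held without each liver in turn, and was not called in the fit of all 27 samples (limma adjusted p = 0.242). With rescaling on all but the 20 most abundant genes the calls among regulators were 3 higher and 1 lower, among transporters 2 higher and 0 lower, and the median of the regulators moved from -0.17 to 0.00.

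**Figure D3:**
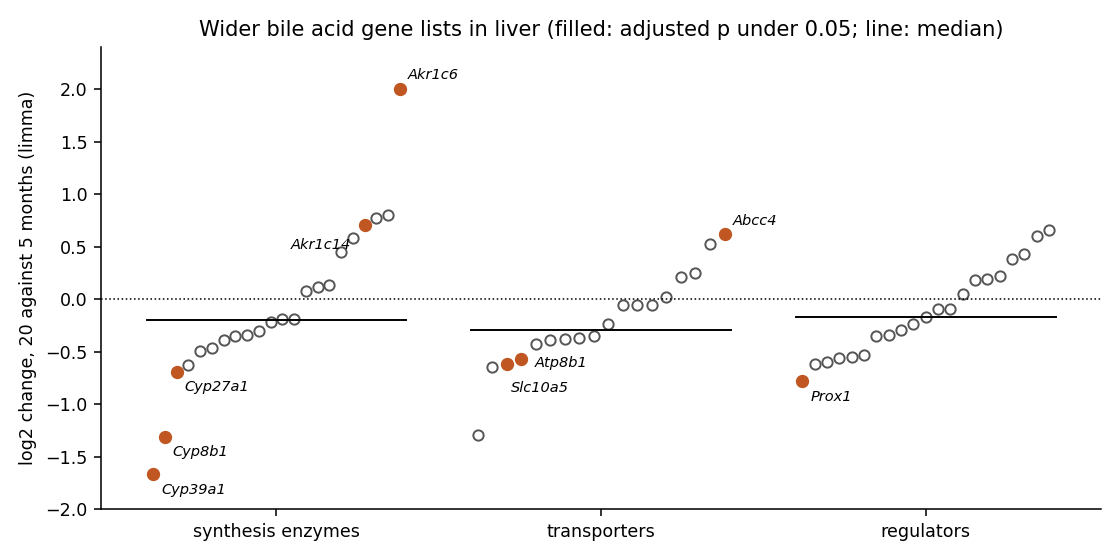
Log2 change in liver, 20 against 5 months (limma), of each tested gene of the synthesis (22), transporter (18) and regulator (21) lists, ordered within a list; filled points have an adjusted p under 0.05 and horizontal lines are the list medians (-0.20, -0.29 and -0.17). The 9 named points lie on both sides of 0, with *Akr1c6* (2.002) and *Cyp39a1* (-1.67) at the ends.

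Other genes moved with age in the same livers, and their part in the changes above was not tested. Bile acid synthesis is known to follow the time of day, and of 17 clock genes *Nr1d1* and *Dbp* were higher and *Clock* lower at 20 months. *Nr1d1*, a repressor that also acts on bile acid genes, was at 15.5 to 54.0 at 5 months and 64.7 to 146 at 20 months (log2 change 1.85, limma adjusted p = 0.0097). *Dbp*, an output gene of the clock, was at 1.60 to 2.28 at 5 months and at 2.60, 9.67, 12.5, 76.3 and 82.6 in mice 16, 17, 18, 19 and 74 (log2 change 2.81, limma adjusted p = 0.0332, lost without 6 of the 9 livers). *Clock* had a log2 change of -0.58 (limma adjusted p = 0.0151). *Cyp8b1* was at 1327 to 1703 at 5 months and at 1128, 464, 748, 748 and 232 in mice 16, 17, 18, 19 and 74. A relation of *Dbp* with *Cyp8b1* was not tested. With 1 liver left out, 1 to 4 clock genes were higher and 1 to 4 lower, the most without mouse 16.

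*Cyp7b1* is among the genes that male growth hormone pulses keep high in male liver. Of 10 such male-biased genes tested, *Cyp4a12b* was the 1 that passed (log2 change -1.10, limma adjusted p = 0.0346), a call lost without 6 of the 9 livers (18, 19, A, B, C and D) and with no filter, and 4 of the 10 passed without mouse 16. Of 7 female-biased genes tested 5 were higher, and *Cyp17a1* was lower (log2 change -3.37, limma adjusted p = 0.0012). Without mouse 17, 18, 19 or 74 only 5 genes of the list were tested and 2 were higher. Without B, C or D 3 of 7 were higher. Among the female-biased genes that were higher, *Cyp2b9* had the largest change (5.25, limma adjusted p = 0.0050), followed by *Cyp2b13* (3.61, limma adjusted p = 0.0101) and *Hao2*, which was at 0 in all 4 young livers and at 0.763 to 6.71 in the older ones (limma adjusted p = 0.0127). *Cyp3a41a* was also among those higher (log2 change 0.97, limma adjusted p = 0.0457). With a liver left out, it was called in 1 of the 5 fits that tested it. *Cyp3a41a*, *Hao2* and *Cyp2b13* were each at most 0.24 in a young liver. They passed the filter on low values only through the older livers. The count of 5 higher was thus partly set by the filter. With no filter 12 genes of the list were tested and 3 were higher. On this scale the fitted changes of genes near 0 depend on the pseudocount, and reads of the 2 Cyp2b genes could be split between copies.

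Markers of cell types also differed with age. Of 9 hepatocyte markers 3 were lower at 20 months, *Cps1* (log2 change -2.14, limma adjusted p = 0.0060), *Tat* (-1.87, 0.0112) and *Pck1* (-0.96, 0.0497), the last being lost without any 1 liver except that of mouse 16 and in 4 of 11 other settings, while *Alb*, with a mean of 96938 at 5 months and 55182 at 20 months, did not pass (-0.86, limma adjusted p = 0.331), nor did *Trf* (0.57, limma adjusted p = 0.230). The list summed to 128918 to 193789 at 5 months and 72782 to 128089 at 20 months. Of 8 stellate cell and fibroblast markers 5 were higher and the list summed to 224 to 354 and 336 to 509. The 3 with the smallest adjusted p were *Col1a1* (log2 change 1.59), *Lrat* (1.17) and *Col3a1* (1.57), and *Dcn* was the most abundant (219 and 274). Of 6 B and plasma cell markers tested 5 were higher, among them *Cd79b* (1.31) and *Jchain* (1.92). The count was 2 with no filter, in the fit of all 27 samples and without mouse 19, B or C, and 3 without mouse 17, 74 or A. At 5 and 20 months the list summed to 1.82 to 9.52 and 9.60 to 38.9, with *Cd79a* at 1.32 and 3.51 and *Ighm* at 0 in every liver. Of 8 macrophage markers *Lyz2* (1.73) and *Cd5l* (1.32) were higher, 6 of the 8 being so without mouse 16 and 1 without mouse 18, 19, B or C, and the list summed to 234 to 377 and 299.9 to 945. Of 7 cholangiocyte markers *Spp1* was higher (1.14) and *Sox9* lower (-0.74), with sums of 84.4 to 105 and 106 to 155. Of 6 endothelial markers *Kdr* was lower (-0.49, lost without 6 of the 9 livers), *Stab2* was at 55.4 and 49.7, *Clec4g* at 55.0 and 43.8, and the list summed to 213 to 409 and 173 to 237. Of 2 adipocyte markers tested *Cidec* was lower (-1.79), a call lost without 8 of the 9 livers and in 4 of 11 other settings (limma adjusted p up to 0.151), and *Fabp4* was at 13.8 and 13.7, with 4 of the 6 genes of that list below 1 in every liver.

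Outside liver, the filter on low values kept 4 of the 10 genes in adipose tissue and 2 in muscle. In adipose tissue *Abcb4* rose with age and the other 3 did not pass, 1 of 4 where 19.1% of all 14005 genes passed. Its values were 1.21, 1.18, 1.63 and 2.04 in mice A, B, C and D and 4.33, 6.77, 9.40, 7.34 and 3.58 in mice 36, 37, 38, 39 and 40. The ages did not overlap and the gene stayed low, at 32 to 316 reads per sample. Its log2 change was 1.48 (SE 0.247, 95% interval 0.93 to 2.04, limma adjusted p = 0.0114), a 4.15-fold higher mean at 20 months, and it was called without each sample in turn. In the same adipose samples 5 of 6 B and plasma cell markers tested were higher at 20 months, with a summed value of 10.6 to 98.5 at 5 months and 27.8 to 351 at 20 months, and 1 of 7 macrophage markers was higher, with sums of 514 to 1302 and 777 to 4688. Of 5 endothelial markers 3 were lower, with sums of 623 to 1322 and 339 to 698, and 1 of 7 stellate cell and fibroblast markers was lower, with sums of 2497 to 4151 and 2215 to 3472. Of 8 cholangiocyte markers 1 was higher and 1 lower, with sums of 29.8 to 118 and 27.7 to 271. Their part in the rise of *Abcb4* was not tested. *Cyp7b1* in adipose tissue was at 1.39 to 1.995 and 0.389 to 1.503 (log2 change -0.56, limma adjusted p = 0.0880), *Nr1h4* at 0.989 to 1.49 and 0.609 to 1.30 (-0.33, limma adjusted p = 0.164) and *Cyp27a1* at 29.9 to 46.4 and 31.5 to 51.1 (0.17, limma adjusted p = 0.495).

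In skeletal muscle *Cyp27a1* fell and *Abcb4* did not pass, 1 of 2 where 19.3% of all 12720 genes passed. *Cyp27a1* was at 206, 209.9, 195 and 152 in mice A, B, C and D and at 113, 102.5, 93.2, 99.6 and 93.4 in mice 56, 57, 58, 59 and 60. The ages did not overlap, and the older samples lay between 93.2 and 113. The means were 191 ± 26.7 (SD, n = 4 muscles) and 100.3 ± 8.07 (SD, n = 5 muscles), a log2 change of -0.91 (SE 0.109, 95% interval -1.15 to -0.67, limma adjusted p = 0.0012), which passed in all 20 alternatives. In the same muscles 2 of 4 macrophage markers tested were lower, with summed values of 101 to 142 at 5 months and 55.2 to 111 at 20 months. Of 7 stellate cell and fibroblast markers 5 were lower, with a median log2 change of -0.84 and sums of 5143 to 6799 and 4940 to 5853. Of 5 endothelial markers 2 were lower and 1 higher, with sums of 399 to 474 and 312 to 414, and 1 each of 7 hepatocyte markers (sums of 60.6 to 434 and 23.4 to 117), and of 4 cholangiocyte markers (77.4 to 153 and 76.8 to 115), was lower. Their part in the fall of *Cyp27a1* was not tested. *Abcb4* was at 195 to 282 and 235 to 284, with overlapping ages and a log2 change of 0.04 (SE 0.121, limma adjusted p = 0.844).

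**Figure D4:**
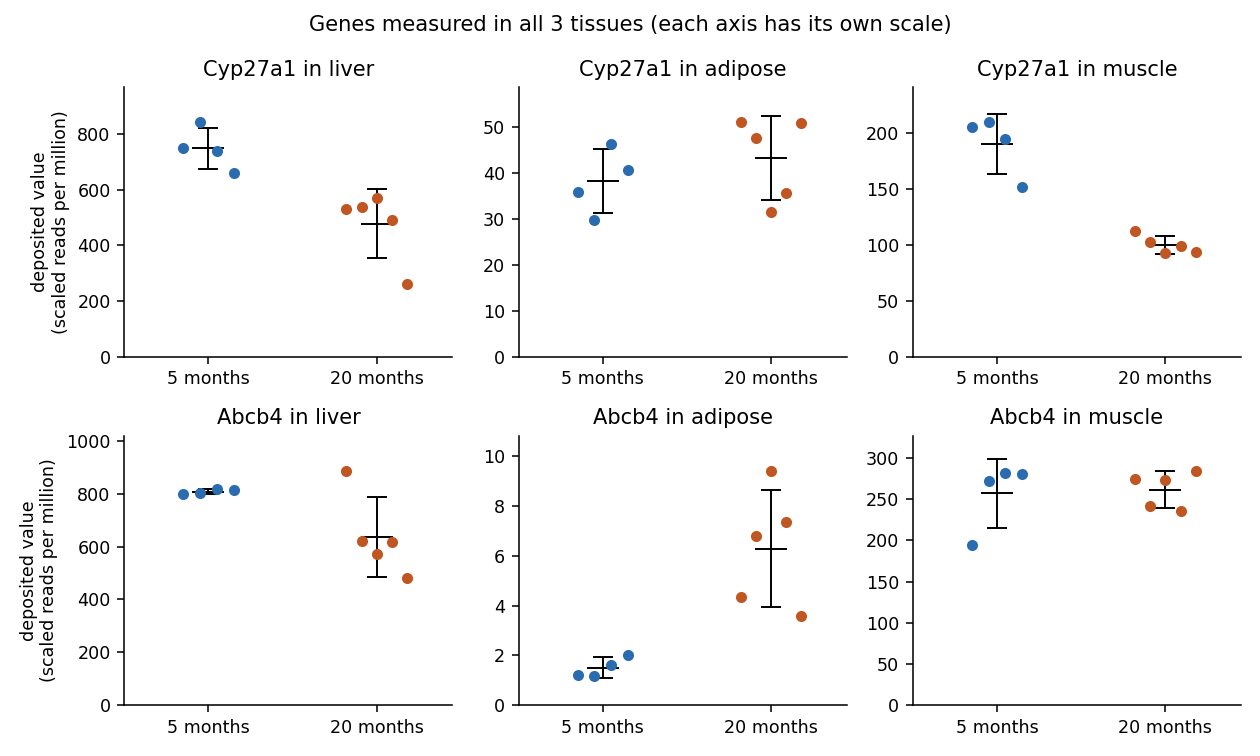
Deposited value of *Cyp27a1* (top row) and *Abcb4* (bottom row) in liver, adipose tissue and skeletal muscle at 5 months (blue, n = 4) and 20 months (orange, n = 5), with the mean (horizontal mark) and SD (bars); each axis starts at 0 and has its own scale. *Cyp27a1* is lower at 20 months without overlap in liver and muscle and overlaps in adipose tissue, and *Abcb4* rises in adipose tissue from at most 2.04 to at least 3.58.

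The age change itself differed between liver and adipose tissue for *Cyp27a1* (log2 difference -0.86, SE 0.260, 95% interval -1.40 to -0.33, limma adjusted p = 0.0262) and for *Abcb4* (-1.86, SE 0.262, 95% interval -2.40 to -1.32, limma adjusted p = 8.1e-05). The call of *Cyp27a1* was lost without the liver or the adipose sample of mouse B (limma adjusted p up to 0.0667). That is 2 of 10 genes, where 15.6% of all 15572 genes in this fit passed. The difference of *Cyp8b1* was -1.29 (limma adjusted p = 0.134). Between liver and muscle 0 of the 10 genes passed, where 17.5% of all genes did, and 0 had an unadjusted limma p under 0.05. By edgeR 0 of the 10 passed, and by DESeq2 1 did, *Nr1h4*, which had at most 12 reads in any muscle. Applied within a tissue, the filter kept 4 of the 10 genes in adipose tissue and 2 in muscle. The other genes entered this fit through their liver values, and their differences set the liver change against low values. The counts out of 10 are therefore not counts of genes measured in both tissues. For *Cyp27a1* the difference between liver and muscle was 0.22 (95% interval -0.32 to 0.75, limma adjusted p = 0.610), an interval that does not show the changes to be alike.

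The members that did not pass the filter outside liver reached at most 2.03 in adipose tissue and 6.73 in muscle, both being *Cyp8b1*. The adipose sample was that of mouse 36, which also had the most *Alb* of the adipose samples (173, against 1.995 to 95.8 in the others), and the muscle was that of mouse C at 5 months, where *Alb* was 222 (0 to 43.1 in the other muscles). *Cyp7a1* gave at most 4 reads in any adipose or muscle sample. Whether liver RNA reached those samples was not tested.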

How the data were processed

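Liver, omental adipose tissue and skeletal muscle RNA-seq of *Mlx*KO mice, all male, gave 27 samples, grouped by the age and tissue of their labels. Per the methods of the study, read counting was done by the authors with CLC Genomics Workbench, whose reference genome is not given in the sources used here, while the submitters' processing notes list GRCm38.p6 and mm10. The deposited values are a scaled signal headed CPM, but the samples sum to between 559419 and 1395314, since the authors also divided each sample by a factor. The planned tests had assumed CPM and were kept. Each value was a whole multiple of 1 read (100% of values, tolerance 0.001), which gave the reads back, 14384695 to 25673919 per sample. Samples of a group carry separate mouse numbers, and p-values measure the spread between these samples.

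Ages were compared within a tissue on log2(value + 1) with limma-trend (limma 3.58.1, R 4.3.3), keeping genes that reached 1 in 4 or more samples, and p-values were adjusted over all kept genes by Benjamini-Hochberg, with 0.05 as the threshold. A change on this scale understates that of low genes. Age changes of 2 tissues were compared in 1 fit of all 27 samples. Intervals are 95%. Recovered reads were tested by DESeq2 1.42.0 and edgeR 4.0.16, and other pseudocounts, filters and scalings, sample weights, removal of a length and GC trend and leaving out each sample were further alternatives. The procedure was tested on simulated data. Among 48 pairs of samples of 1 group, 0 were identical.

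The 10 genes and all gene lists were chosen with earlier results of these data known. Named besides the 10 are the 3 genes of each list with the smallest adjusted p in each direction among those called in liver, the 2 most abundant markers of a list, *Mlx* and the 3 nearest profiles. *Cyp3a41a* is named in addition, for its low values in young livers. The samples of 1 mouse at 5 months are paired across tissues by the mouse number in the labels: deviations from the group means had a mean correlation across genes of 0.14 over 12 pairs from the same mouse (lowest -0.02, highest 0.29) and -0.04 over 36 pairs from different mice. Deviations within a group cancel out, so the mean for different mice is tied to that for the same mouse and is not a separate comparison. Promoter windows and gene positions are from RefSeq on GRCm38.p6, matched by symbol. Values of 2 cell type markers that the naming rule would give are not reported here.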

Additional observations from a re-analysis of the deposited data

Results flagged for a closer look

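*Cyp27a1* in the liver of mouse 74 at 20 months (261) lay far below the 492 to 569.7 of the other 4 older livers. *Abcb4* in the muscle of mouse A at 5 months (195) lay far below the 271 to 282 of the other 3. Of 32 groups of 4 or 5 samples examined, these 2 were marked by Dixon's criterion, which marks about 1 group in 20 by chance. The age change of *Cyp27a1* differed between liver and adipose tissue by -0.86 (log2, SE 0.260, limma adjusted p = 0.0262), and that of *Abcb4* by -1.86 (log2, SE 0.262, limma adjusted p = 8.1e-05), each tested as the difference itself.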

How the results depend on the processing

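The calls of *Cyp8b1* and *Cyp27a1* in liver depend on the setting, while those of *Cyp27a1* in muscle and *Abcb4* in adipose tissue held wherever the gene was tested. With 2 genes called in liver as reported, 0 were called with no filter, 1 with rescaling on all but the 20 most abundant genes and 4 with sample weights, and leaving out 1 liver gave 0 to 3. In adipose tissue, with 1 called as reported, 0 were called at a mean value of at least 5 (*Abcb4* then not being tested) and 2 each with sample weights and with the length and GC trend removed, and leaving out 1 sample gave 1 to 2. Between liver and adipose tissue, 2 as reported became 1 with that rescaling and 1 to 3 with a sample left out. Between liver and muscle, 0 became 1 with DESeq2. With the mouse as a replicate block, 2 genes differed between liver and adipose tissue and 0 between liver and muscle. The block joined tissues at 5 months only, as no mouse number was shared at 20 months, and that pairing changed no call among the 10. Over all genes, the calls with no filter were 1732 in liver against 2508 as reported, 1525 against 2674 in adipose tissue and 1507 against 2451 in muscle. The edgeR test on the recovered reads called 2578, 2692 and 2453. The calls were 4454, 8456 and 2549 with sample weights, 4348 with DESeq2 and 5270 with all 27 samples in 1 fit in adipose tissue, and leaving out 1 sample gave 959 to 3557, 397 to 3748 and 1158 to 3796. Sample weights gave 6187 calls between liver and adipose tissue against 2424 and 4227 between liver and muscle against 2732. Genes near 0 changed sign. *Cyp7a1* in liver was -0.068 with edgeR and -0.058 with DESeq2, and -0.34 to 1.09 with a liver left out. *Cyp7b1* was -0.26 with sample weights, -0.033 with edgeR and -0.024 with DESeq2, and -0.11 to 0.36 with a liver left out. *Nr1h4* was -0.075 with sample weights, -0.053 with the length and GC trend removed and -0.09 to 0.12 with a liver left out. *Abcb4* in muscle was -0.090 to 0.088 with a sample left out. For these changes the cause was not tested. Each of the 10 genes had at least 117 reads in every liver.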
